A study of Mus musculus with 167 samples.

Results

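Bap1 and 7 of its known partner genes (Asxl1, Asxl2, Hcfc1, Foxk1, Foxk2, Ogt and Kdm1b) were read out of 36118 genes counted in asbestos-induced tumours of mice. The 8 genes were picked by name from knowledge of the complex and not by any measured value. Earlier results of these data were known at that time, and each gene matched 1 Ensembl identifier. The counts came from 167 whole tumours of 119 mice: 52 tumours of 36 mice below median survival and the rest from 83 mice above median survival. All mice of both classes were offspring of a Collaborative Cross sire and a MexTAg dam, and all received 2 intraperitoneal injections of 3 mg crocidolite asbestos with 1 month between them; the labels give no other treatment. Collaborative Cross lines are inbred, each with its own mix of founder genomes, while the MexTAg transgene places the viral oncogene SV40 large T antigen under control of the mesothelin promoter, active in mesothelial cells. The 35 crosses are named by the sire's line and called strains. The sources used here do not give age, sex, tumour mutations or the mice behind the survival median.

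Bap1 encodes a nuclear deubiquitinase that removes ubiquitin from histone H2A, the mark that Polycomb repressive complex 1 writes. Its activity requires an additional sex combs-like subunit, Asxl1 or Asxl2. Hcfc1 is a scaffold that links the enzyme to transcription factors and to histone methyltransferases, Foxk1 and Foxk2 are forkhead factors that bring it to DNA, Ogt is the O-GlcNAc transferase that modifies and cleaves Hcfc1, and Kdm1b is a histone demethylase found with the complex. BAP1 is a tumour suppressor that is often lost in human mesothelioma, and inherited BAP1 mutations predispose to this cancer.

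A library held between 11138491 and 35399287 counts, with a median of 22539831. All 10 mesothelial marker genes were detected, and their sum took a median of 0.0419% of counts in tumours below and 0.0432% in tumours above median survival. Mesothelin itself (Msln) had 0.655 to 1155 CPM (counts scaled to library total) with a median of 16.7, Upk3b was at 0 in 1 tumour, and Calb2, which encodes calretinin, was at 0 in 61 of 167. Other tissues took over 1% of counts in 18 libraries, and 6 libraries correlated better with another strain's mean than with their own strain's, 5 of them by a gap of over 0.1. In whole tumours, fewer cells of a type and less RNA per cell cannot be told apart. The library numbers in the titles also mark a set of libraries. Its 58 libraries of 43 mice carry the numbers 13 to 71, each used once within the set with 1 number of the range missing. Of their titles, 6 also carry plate positions that keep 1 offset to the number. This set is called the number run. It holds every mouse of 13 strains and 2 mice of CC053, with 7 mice below and 36 mice above median survival, against 29 mice below and 47 mice above median survival among the other 76. The sources used here do not say whether its libraries were prepared together.

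All 8 members were counted in every tumour and passed the filter on low counts in each test; the lowest count of any of them was 120, for Kdm1b. CPM were taken after TMM scaling of the library totals, and log2 values carry a prior count of 2. Bap1, on chromosome 14 (chr14:31251450-31259944, plus strand, GRCm38), had 21.5 to 121.5 CPM over the 167 tumours with a median of 60.2, from a lowest count of 448 to a highest of 2538. Per kilobase of exon, which allows levels to be set side by side between genes, Ogt (chrX:101640060-101684351) had the highest median, 28.3 CPM per kb. Hcfc1 (chrX:73942792-73966357) followed with 23.1, Foxk2 (chr11:121259990-121309896) with 17.03, Bap1 with 12.9, Asxl1 (chr2:153345829-153404007) with 12.4 and Foxk1 (chr5:142401497-142462011) with 11.5 CPM per kb. Kdm1b (chr13:47043499-47085279) at 4.49 and Asxl2 (chr12:3426857-3506852) at 3.90 CPM per kb were the lowest. The order of these medians is a description, since the ranges overlap from one member to the next. The highest tumour exceeded the lowest by 12.6-fold for Kdm1b, 10.7-fold for Ogt, 7.79-fold for Foxk1 and 7.40-fold for Asxl2, and by 3.37-fold for Asxl1, the narrowest of the 8.

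The start regions of 5 members are printed for the pairs described below: Hcfc1 had the highest correlation with Bap1 of the 7 partners, Foxk2 and Asxl1 correlated with Hcfc1, and Ogt had the most negative correlation with Bap1 over all mice. Each is the RefSeq window (GRCm38.p6) of 250 bases before and 50 bases after a transcription start, 5′ to 3′ on the gene's strand, with matches to 6 motifs in capitals. Both strands were searched for an ETS core (CCGGAAG), a CRE core (TGACGT), a YY1 core (AAGATGG), an SP1 box (GGGGCGG), a THAP11 site and a CCAAT box.
Bap1 (chr14:31251239-31251538, plus strand): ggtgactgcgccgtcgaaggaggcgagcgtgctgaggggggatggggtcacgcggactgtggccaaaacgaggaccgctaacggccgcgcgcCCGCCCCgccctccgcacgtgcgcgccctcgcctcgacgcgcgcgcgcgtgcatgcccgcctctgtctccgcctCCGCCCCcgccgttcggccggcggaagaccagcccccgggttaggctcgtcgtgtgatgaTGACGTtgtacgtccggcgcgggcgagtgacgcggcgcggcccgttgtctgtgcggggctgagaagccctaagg
Hcfc1 (chrX:73966308-73966607, minus strand): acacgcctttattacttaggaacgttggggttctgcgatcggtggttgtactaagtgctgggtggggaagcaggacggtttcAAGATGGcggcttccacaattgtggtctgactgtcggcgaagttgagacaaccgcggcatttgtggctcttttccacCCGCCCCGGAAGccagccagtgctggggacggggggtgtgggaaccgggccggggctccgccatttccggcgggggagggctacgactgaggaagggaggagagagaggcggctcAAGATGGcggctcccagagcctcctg
Foxk2 (chr11:121259737-121260036, plus strand): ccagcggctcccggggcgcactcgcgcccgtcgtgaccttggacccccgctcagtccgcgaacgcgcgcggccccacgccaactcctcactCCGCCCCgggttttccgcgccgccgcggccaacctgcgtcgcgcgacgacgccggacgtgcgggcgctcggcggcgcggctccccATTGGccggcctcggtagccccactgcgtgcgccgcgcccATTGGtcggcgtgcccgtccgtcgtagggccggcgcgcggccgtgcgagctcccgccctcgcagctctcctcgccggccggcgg
Asxl1 (chr2:153345580-153345879, plus strand): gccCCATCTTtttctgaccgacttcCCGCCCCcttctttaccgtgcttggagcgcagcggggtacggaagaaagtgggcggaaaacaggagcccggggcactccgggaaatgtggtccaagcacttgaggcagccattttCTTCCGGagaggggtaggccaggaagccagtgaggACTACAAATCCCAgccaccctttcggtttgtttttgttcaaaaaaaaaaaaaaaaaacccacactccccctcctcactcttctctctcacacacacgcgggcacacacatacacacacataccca
Ogt (chrX:101639801-101640100, plus strand, the first of 2 starts): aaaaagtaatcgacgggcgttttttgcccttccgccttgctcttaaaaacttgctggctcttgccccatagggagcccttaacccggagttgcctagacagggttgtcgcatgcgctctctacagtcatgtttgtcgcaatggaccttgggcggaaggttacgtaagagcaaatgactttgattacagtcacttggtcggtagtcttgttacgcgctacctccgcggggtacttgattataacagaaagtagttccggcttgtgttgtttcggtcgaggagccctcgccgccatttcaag

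The Bap1 window is 73.7% G and C with 50 CpG pairs, and holds 2 SP1 boxes and a CRE core 24 bases before the start. The Hcfc1 window holds 2 YY1 cores, and an ETS core that shares bases with an SP1 box. Foxk2 has the densest window, 79.3% G and C with 59 CpG pairs, with an SP1 box and 2 CCAAT boxes on the opposite strand. Asxl1 has an ETS core, a YY1 core, an SP1 box and a THAP11 site, a match to the motif of a factor that binds HCFC1 in human cells. The printed Ogt window has none of the 6 motifs, with 51% G and C and 20 CpG pairs. Over all 32851 windows of the same length, the median was 52.7% G and C with 7 CpG pairs. Of these windows 8.86% hold the ETS core, 7.51% the CRE core, 6.34% the YY1 core, 23.2% the SP1 box, 1.69% the THAP11 site and 37.4% the CCAAT box. A start window was found for 7 of the 8 members. The matches are letters only and say nothing of binding in these tumours.

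No member passed the test between the survival classes. Bap1 had 31.4 CPM in its lowest mouse, 59.7 in the median mouse and 92.2 in its highest mouse below median survival, and 20.96, 58.2 and 107.7 CPM above median survival. The classes overlapped over nearly their whole range, and the log2 difference (below minus above) was 0.07 ± 0.07 (SE; 36 and 83 mice; adjusted p = 0.907, edgeR's quasi-likelihood test over 17091 genes). None of the 8 members passed an adjusted p of 0.05 in either direction, where 1.56% of all genes tested did, 0.983% higher and 0.579% lower below median survival. Limma-voom, DESeq2 and every other setting tried also gave 0 of 8.

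**Figure D1:**
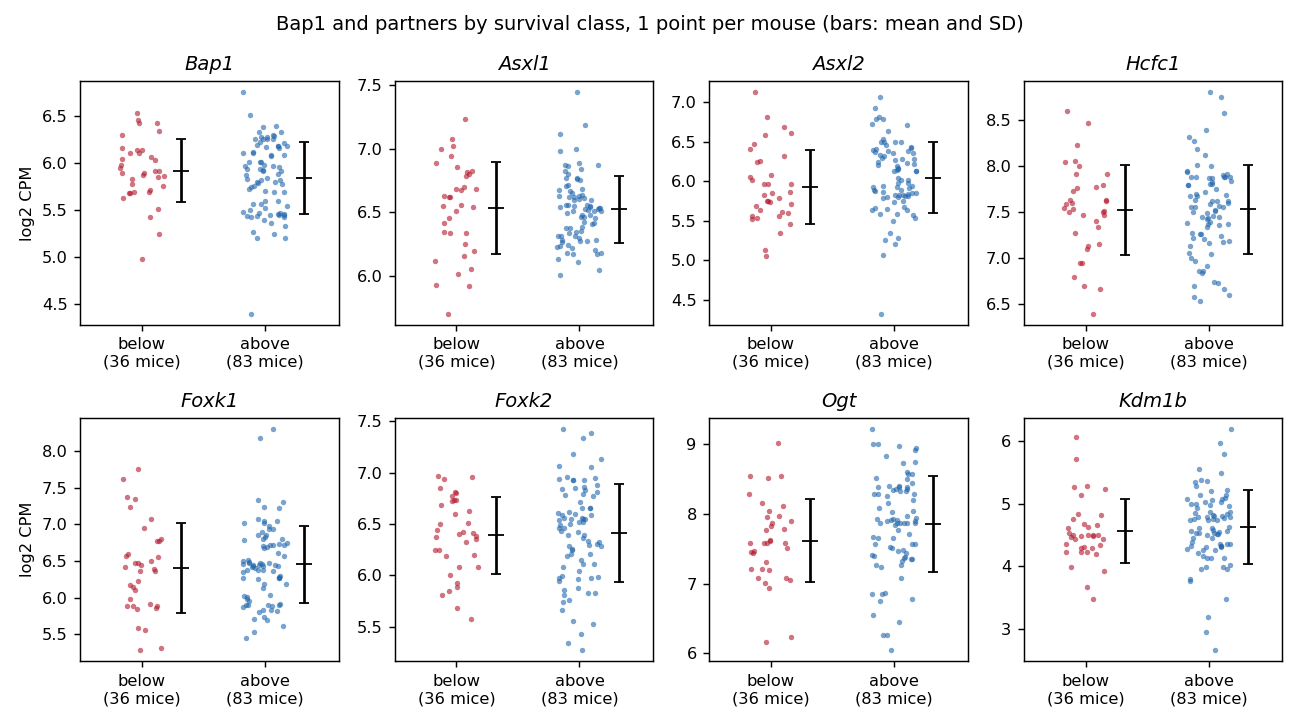
Log2 CPM (vertical axis) of each member in mice below (36, left, red) and above (83, right, blue) median survival, 1 point per mouse, with the mean and SD as bars. The classes overlap for all 8 members; the mean log2 CPM of Bap1 was 5.91 below and 5.84 above, and that of Ogt 7.62 below and 7.86 above.

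Ogt came nearest to a difference. It had 71.3, 192.1 and 520.1 CPM (lowest, median, highest mouse) below median survival, and 65.9, 238.3 and 598.0 CPM above median survival. Its log2 difference was -0.27 ± 0.13 (unadjusted p = 0.0393, adjusted p = 0.5004, edgeR), the only member with an unadjusted p under 0.05. The classes are unevenly spread over the number run, and with the run as a covariate the Ogt difference was -0.05 ± 0.10 (adjusted p = 0.921, edgeR). Within the run the mean log2 CPM of Ogt was 8.29 ± 0.52 (SD) in 7 mice below and 8.38 ± 0.40 in 36 mice above median survival. Outside it the means were 7.46 ± 0.50 in 29 mice below and 7.46 ± 0.60 in 47 mice above. For Bap1 the same means were 5.57 ± 0.36 below and 5.53 ± 0.32 above within the run, and 6.00 ± 0.28 below and 6.07 ± 0.25 above outside it.

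The other 6 members had log2 differences between the classes of -0.10 for Asxl2, -0.08 for Kdm1b, -0.05 for Foxk2, -0.03 for Foxk1, -0.01 for Hcfc1 and 0.03 for Asxl1 (SE 0.06 to 0.11). Among the 57 mice of the 13 strains that hold both classes, with strain as a covariate, 0 of 8 passed, as did 0% of all 16481 genes tested (edgeR; 1882 genes had an unadjusted p under 0.05, and DESeq2 called 69). The largest differences there were -0.26 ± 0.14 for Ogt and 0.23 ± 0.11 for Foxk1 (adjusted p = 0.465 and 0.431, edgeR). Whether the class difference itself varied between strains was tested in 37 mice, and 0 of 8 members and 0% of 16454 genes passed (edgeR; 1393 genes had p under 0.05 before adjustment, and limma-voom called 0).

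The strains differed in most members. Among the 25 strains with at least 3 mice, the strain mean of Bap1 ran from 5.26 log2 CPM in CC058 to 6.31 in LAT. The CC058 mean includes mouse CC058-H4 at 4.39, beside 5.46 in B2 and 5.93 in I4, and KAV also had 5.26. The LAT mean includes the library highest in Bap1, from LAT-D3, which correlated better with LOX (r = 0.83) than with LAT (-0.04). It also includes a library of LAT-F5 that correlated better with CC059 (0.77) than with LAT (0.12). The deubiquitinase subunits Asxl1 and Asxl2 did not pass the test across strains, and the other 6 members did: Bap1 (adjusted p = 6.9e-08), Ogt (3.5e-07), Hcfc1 (1.9e-05), Foxk1 (3.0e-05), Foxk2 (0.0046) and Kdm1b (0.0354; edgeR's quasi-likelihood test). These 6 of 8 stand beside 69% of all 20687 genes tested, so the count is near the background. The width of the strain differences was largest for Ogt, whose strain means spanned 2.14 on the log2 scale from CC046 (6.46) to Piping (8.60), followed by Kdm1b with 1.82 and Foxk1 with 1.62, and smallest for Asxl1 with 0.70.

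Bap1 was among the genes with the largest share of variance between strains. That share was 63.3% for Bap1, above that of 98.1% of 12829 genes with a mean of 5 CPM or more, and 60.9% for Ogt, above 97.2%. It was 53.5% for Hcfc1, 47.8% for Foxk1, 43.7% for Foxk2, 37.8% for Kdm1b, 30.2% for Asxl2 and 26.8% for Asxl1, where the median gene had 37.3% and no strain difference at all would give 23.5%. Within a strain, Bap1 was among the steadiest genes: its SD between mice of 1 strain was 0.27 on the log2 scale, and 1.11% of genes had a lower one. Asxl1 had 0.28, and Kdm1b had the widest SD within strain of the 8 at 0.53, against 0.57 for the median gene.

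In Bap1 the order of the strains followed the number run. In the 3 CC058 mice Bap1 had 20.96 to 60.9 CPM, in the 3 KAV mice 36.6 to 41.8, in the 6 LAX mice 31.4 to 43.7 and in the 3 CC081 mice 37.7 to 44.98. At the other end it had 56.4 to 107.7 CPM in the 5 LAT mice, 61.1 to 80.5 in the 4 Rogan mice and 67.5 to 83.4 in the 3 CC046 mice. Of the 10 strains lowest in Bap1, 9 belonged to the run. Ogt ran the other way: the 10 strains highest in Ogt all belonged to the run, from Piping with 366.5 to 427.2 CPM to CC036 with 263.2 to 313.3, while CC046 had 65.9 to 134.9 CPM. In no member did any of the 24 neighbouring pairs of strains in the order separate without overlap. The lowest and the highest strain did not overlap in Asxl1, Hcfc1, Foxk1, Foxk2 and Ogt, and overlapped in Bap1, Asxl2 and Kdm1b. Overlap was not taken over all genes, so it has no background here.

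**Figure D2:**
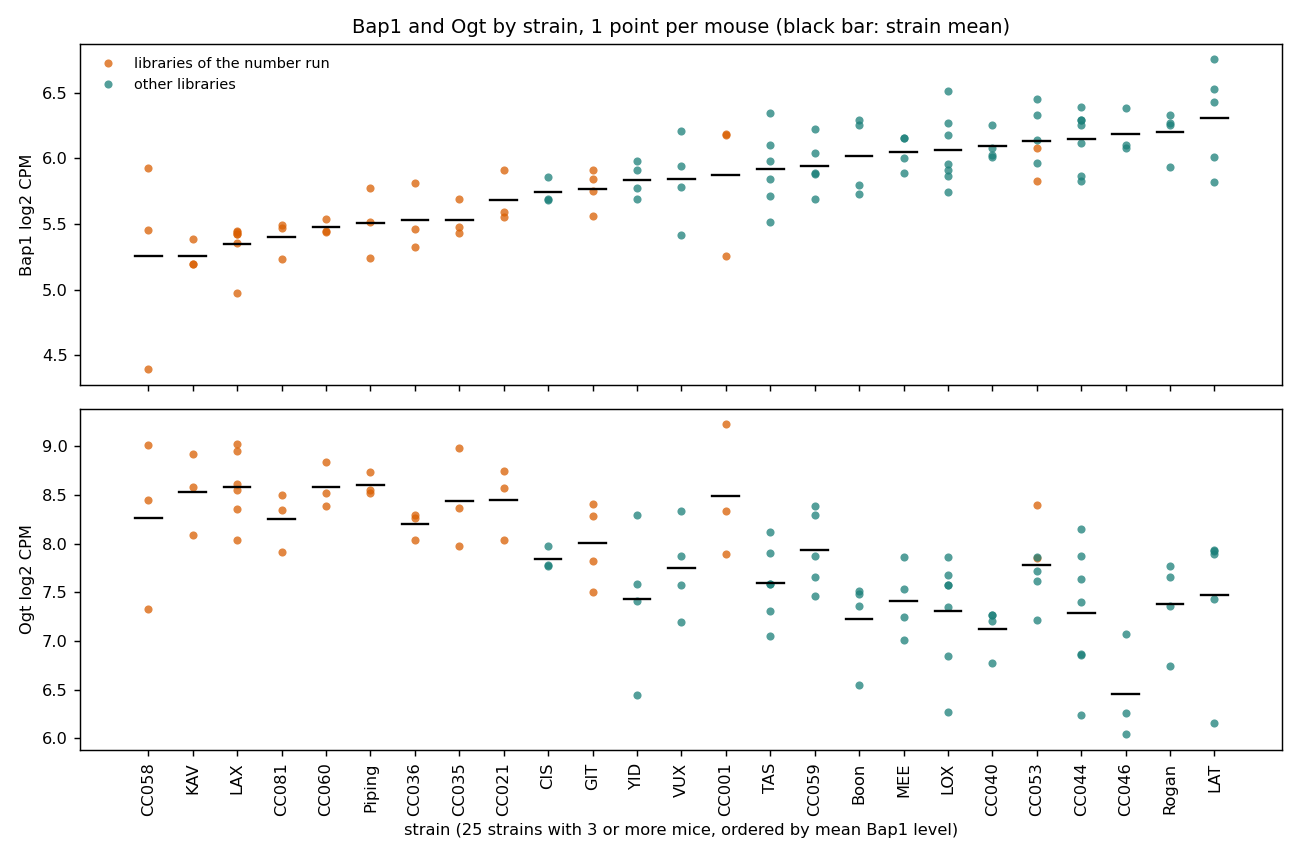
Log2 CPM of Bap1 (top) and Ogt (bottom) in the mice of the 25 strains with 3 or more mice, ordered by mean Bap1 level. Each point is a mouse, orange for libraries of the number run and green for the others, and black bars are strain means; 9 of the 10 strains lowest in Bap1 and the 10 strains highest in Ogt are orange.

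The size of that split was measured directly. Bap1 had 20.96, 44.5 and 72.8 CPM (lowest, median, highest) in the 43 mice of the run, and 42.8, 65.4 and 107.7 CPM in the other 76. The ranges overlapped, and the log2 difference (run minus others) was -0.46 ± 0.06 (adjusted p = 2.0e-11, edgeR). Ogt had 160.3, 334.0 and 598.0 CPM in the run, and 65.9, 183.5 and 513.6 CPM outside it, a difference of 0.89 ± 0.09 (adjusted p = 5.6e-14, edgeR). Asxl2 was also higher in the run (0.36 ± 0.08), while Hcfc1 (-0.37 ± 0.09) and Foxk1 (-0.41 ± 0.10) were lower, so 5 of 8 members passed, against 47.2% of all 16765 genes, 20.9% higher and 26.3% lower. Foxk2 (-0.18 ± 0.08), Kdm1b (0.18 ± 0.11) and Asxl1 (0.01 ± 0.06) did not pass. The fit had no term for strain and took mice of 1 strain as independent, although the run is made up almost wholly of whole strains. Its SE and p-values are therefore too small for a comparison between strains. Membership of the run took 42.6% of the variance of Bap1 and 42.1% of that of Ogt, where the median gene had 3.87%.

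Strain and run cannot be told apart in 13 strains, and only CC053 had mice on both sides. There Bap1 had 56.7 and 67.4 CPM in the 2 mice of the run, against 62.3, 70.3, 80.5 and 87.5 CPM in the other 4. Ogt had 230.1 and 336.9 CPM in the run, against 148.5, 196.0, 210.2 and 233.2 CPM outside it. Both pairs of groups overlapped, with mean log2 differences (run minus others) of -0.27 for Bap1 and 0.52 for Ogt, and the smallest p an exact test of 2 against 4 mice can give is 0.0667. The hepatocyte list moved with the run: its 9 genes took 0.0315% to 21.7% of counts in the run's libraries with a median of 0.0498%, against 4.4e-05% to 16.02% with a median of 0.00576% in the others. The intestine list had medians of 0.00187% in the run and 0.000145% outside it, the kidney list 0.000832% and 0.000111%, and the proliferation list 0.103% and 0.0751% in the same order. Bap1 correlated with the kidney list at r = -0.36 over all mice and 0.04 within strain, and Ogt at 0.29 and -0.13. With the hepatocyte list the values were -0.48 and -0.27 for Bap1, and 0.44 and 0.13 for Ogt. For the intestine list they were -0.45 and -0.12 for Bap1, and 0.38 and 0.02 for Ogt. The proliferation list had 0.04 and 0.04 with Bap1, and 0.09 and 0.14 with Ogt. The part of these lists in the levels of Bap1 and Ogt was not tested.

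Within each side, where fewer mice could be tested, fewer members passed across strains. In the 37 mice of 11 strains in the run, 0 of 8 members passed, beside 17.8% of all genes (edgeR; 0 of 8 also at an unadjusted p under 0.05). In the 45 mice of 11 strains outside the run, also without the 17 libraries of highest number, Hcfc1 alone passed (adjusted p = 0.00297, edgeR), beside 34.5% of all genes. With the run as a covariate over all 25 strains, 5 members passed, beside 50.7% of all genes: Hcfc1 (adjusted p = 0.00244), Foxk1 (0.00468), Foxk2 (0.0323), Bap1 (0.0331) and Kdm1b (0.0452), with Ogt at 0.324 (edgeR). The share of Bap1 variance between strains was 34.8% in the run and 38.7% outside it, near the median gene's 33.2% on both sides. With no strain difference at all the share would be 27.8% in the run and 22.7% outside it. For Hcfc1 it was 31.5% in the run and 58.4% outside it, and for Ogt 21.3% and 47.9%. The shares of Foxk2 (44.3% in the run, 40.04% outside it) and Kdm1b (42.3% and 36.9%) stayed close to their values over all mice, 43.7% and 37.8%, although neither passed on either side. The strains CC053 and CC044 had the highest Hcfc1 means of the 25, 294.4 and 287.8 CPM.

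Mice of 1 strain differed in every member. In 25 mice with several tumours, from 10 strains, all 8 members differed between mice of the same strain beyond the spread between tumours of 1 mouse (58 tumours, edgeR's quasi-likelihood test), beside 63.3% of all 20305 genes tested. Kdm1b had the lowest adjusted p (4.8e-05), followed by Bap1 (0.000165) and Foxk1 (0.00101), and Hcfc1 the highest (0.029). Tumours of 1 mouse were alike in Bap1. Over 35 mice with several tumours, the median gap between the highest and the lowest tumour was 0.17 on the log2 scale for Bap1, and the widest was 0.58, in CIS-G3 with 41.95 and 62.6 CPM. The SD of Bap1 between tumours of 1 mouse was 0.16, and 0.538% of genes had a lower one. Ogt was the least alike, with a median gap of 0.43 and 6 mice in which tumours differed by 1 or more on the log2 scale. The 35 mice include ROGAN-C3, LOX-D1, LAT-D3 and LAT-F5, each with a library that correlated better with another strain. Whether those libraries come from these mice was not tested. In BOON-H2 the Ogt level ran from 97.6 to 280.5 CPM over 3 tumours. The widest Ogt gap, 1.96 in LOX-B4 with 119.7 and 465.4 CPM, includes a library in which reproductive tract genes took 42.02% of counts.

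Most pairs of members were correlated over mice, Hcfc1 with Foxk2 most tightly. Of the 28 pairs of members, 18 had a correlation of log2 CPM past an adjusted permutation p of 0.05 over the 119 mice, 13 positive and 5 negative. The permutations here, and those on each side of the run below, moved mice freely across strains. Mice of 1 strain were taken as independent, so these p-values can be too small. These 18 are 64.3% of the pairs, and the weakest had an r of 0.20 in size; among all pairs of 12829 genes, 40.3% were at or beyond that size, 20.9% positive and 19.4% negative. Hcfc1 and Foxk2 had the highest (Pearson's r = 0.65, Spearman's rho = 0.64, adjusted permutation p = 3.5e-05 over 28 pairs, from 100000 permutations whose smallest p is 1e-05). Bap1 correlated with Hcfc1 at r = 0.55 (rho = 0.53, adjusted permutation p = 3.5e-05), and without the 2 mice farthest from the median of Bap1 at 0.57. Of 12237 genes ranked by r with Bap1, Hcfc1 was number 219, Foxk1 1232, Foxk2 2165, Asxl1 2601, Kdm1b 8664, Asxl2 10652 and Ogt 12217. The subunit pair Asxl1 and Asxl2, which are alternatives in the complex, correlated at r = 0.45 (rho = 0.45, adjusted permutation p = 3.5e-05; 0.47 without the 2 farthest mice).

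Because strains and the run shift several members, the same correlations were taken within strain (strains with 2 or more mice, values centred by strain) and on each side of the run. Within strain 10 pairs passed, all positive. In the run 10 of 28 passed, 9 positive, and outside it 16, of which 15 were positive. These are 35.7%, 35.7% and 57.1% of the member pairs, and among all gene pairs 25.6%, 17.1% and 28.7% were at or beyond the weakest r called in the same setting. Hcfc1 takes part in 4 of the 6 pairs that passed in all 3 settings with 1 sign. The settings share mice, and the share of all gene pairs that would pass in all 3 was not taken, so these counts have no background. Hcfc1 and Foxk2 had r = 0.55 within strain, 0.67 in the run and 0.61 outside it. For Bap1 and Hcfc1 the values were 0.41 within strain (rho = 0.43, adjusted permutation p = 0.000187), 0.36 in the run (adjusted permutation p = 0.0488) and 0.49 outside it. Asxl1 and Hcfc1 had 0.37, 0.59 and 0.52 in the same order, Hcfc1 and Foxk1 0.39, 0.57 and 0.39, Asxl1 and Asxl2 0.43, 0.58 and 0.46, and Asxl1 and Foxk1 0.34, 0.57 and 0.29. In the 16 mice of the highest library numbers, 0 of 28 pairs passed, with r = 0.54 for Bap1 and Hcfc1 and 0.60 for Hcfc1 and Foxk2.

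**Figure D3:**
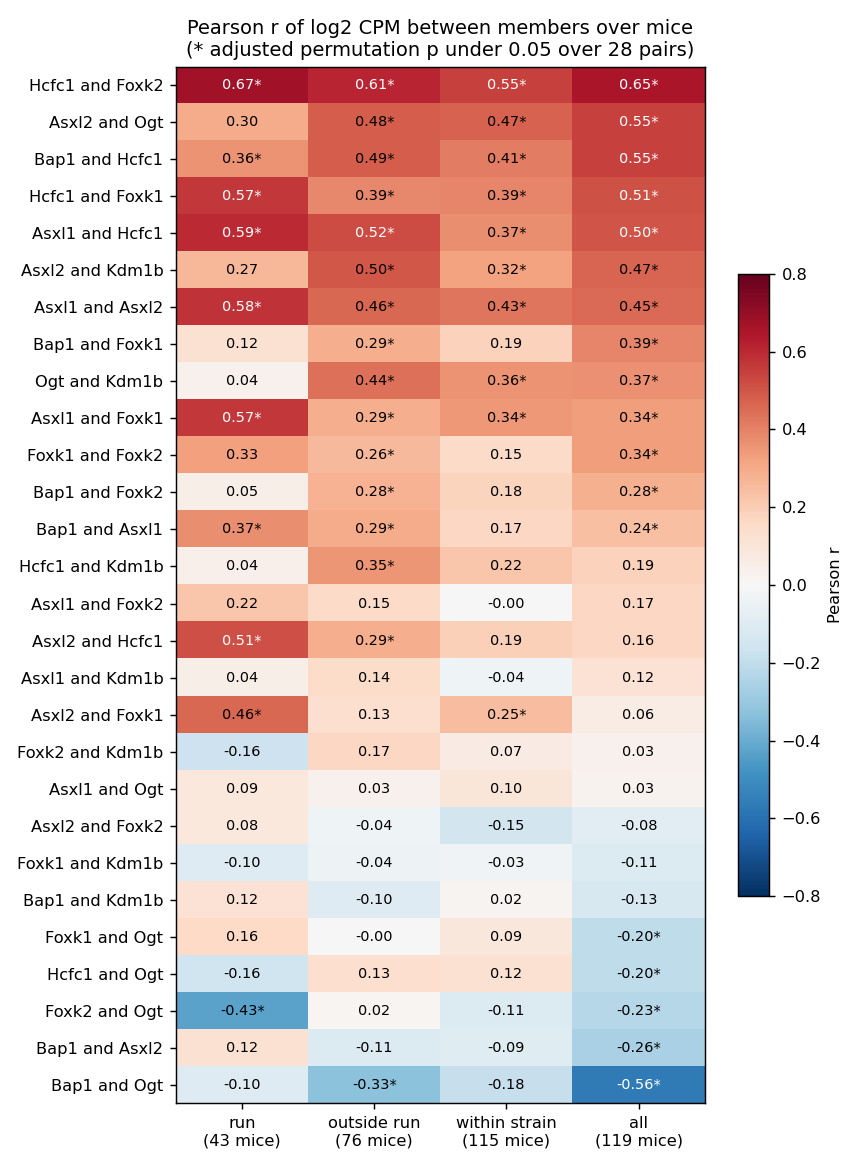
Pearson's r of log2 CPM for the 28 pairs of members (rows) over the 43 mice of the number run, the 76 other mice, the mice centred by strain and all 119 mice (columns). Colour and figures give r, and a star marks an adjusted permutation p under 0.05; Hcfc1 and Foxk2 stay at 0.55 or above in each column, while Bap1 and Ogt lie at -0.56 over all mice and at -0.10 within the run.

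Bap1 and Ogt ran against each other over all mice, at r = -0.56 (rho = -0.64, adjusted permutation p = 3.5e-05; -0.62 without the 2 farthest mice). Within strain it was -0.18 (rho = -0.27, adjusted permutation p = 0.307 for r and 0.0351 for rho), in the run -0.10 (adjusted permutation p = 0.662), and outside the run -0.33 (adjusted permutation p = 0.0106). The negative correlations of Ogt with Hcfc1, Foxk1 and Foxk2 over all mice (-0.20, -0.20 and -0.23) were 0.12, 0.09 and -0.11 within strain, none past the threshold. Ogt instead went with Asxl2 (r = 0.55 over all mice, 0.47 within strain, 0.48 outside the run, 0.30 in the run, where it did not pass) and with Kdm1b (0.37 over all mice, 0.36 within strain). Over the 167 tumours, the log2 library total correlated with Ogt at r = 0.32, Asxl2 at 0.30, Kdm1b at 0.25 and Bap1 at -0.24. For Asxl1, Hcfc1, Foxk1 and Foxk2 it lay between -0.12 and 0.09. The part of depth in these pairs was not tested.

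The genes whose pattern over the 119 mice was most like that of Bap1 were Zfp64 (r = 0.71), a zinc finger factor, Zfp335 (0.71), Tfip11 (0.70), a splicing factor, Eif3g (0.70), a translation initiation subunit, and Pus1 (0.70), a pseudouridine synthase. These values share the shift of the run: within the run they were 0.24 to 0.47 and outside it 0.46 to 0.63. After centring by strain the 5 nearest were Dcp1a (0.51), Ubac2 (0.51), Noc4l (0.50), Gnl3 (0.49) and Dis3 (0.47). Of these, 4 lie on chromosome 14 with Bap1: Gnl3, a nucleolar protein gene, 0.24 Mb away, the decapping gene Dcp1a 0.77 Mb away, the exosome nuclease Dis3 67.8 Mb away and Ubac2 90.6 Mb away. Chromosome 14 held 444 of the 12829 genes with a mean of 5 CPM or more. The ranking included mouse CC058-H4, whose tumour had the lowest Bap1 level and low levels of the genes near it. Without that mouse, the values were 0.44 for Gnl3, 0.41 for Dcp1a, 0.44 for Dis3 and 0.51 for Ubac2, and Noc4l, on chromosome 5, was 0.57. Eif3g (0.52) and Pus1 (0.51), on other chromosomes, then lay above Gnl3, Dcp1a and Dis3. The points share libraries and depth, so these values are descriptions.

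Some members followed markers of cell content. Of 120 relations between the 8 members and 15 marker lists, the strongest was Foxk2 with the proliferation list (r = 0.65, rho = 0.65, adjusted permutation p = 0.00015 over 120 relations; 0.61 within strain and 0.65 without the 2 farthest mice). Hcfc1 followed the same list (r = 0.58, rho = 0.59, adjusted permutation p = 0.00015; 0.60 within strain). Kdm1b followed lymphocyte genes, with r = 0.49 for T cells and 0.47 for B cells, and ran against fibroblast genes at r = -0.56 (rho = -0.47), each at an adjusted permutation p of 0.00015; within strain these were 0.45, 0.49 and -0.53. Bap1 ran against the hepatocyte list (r = -0.48, rho = -0.58, adjusted permutation p = 0.00015), with -0.27 within strain. Its r with the mesothelial list was -0.09 (adjusted permutation p = 0.414). The permutations over all mice took mice of 1 strain as independent, so these p-values can be too small. Whether the correlations among members come from these lists was not tested.

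No tumour came near 0 for a member. None of the 167 tumours had any of the 8 members at 25% of the median or less, where 44.1% of 12829 genes had at least 1 such tumour. In their lowest tumours Kdm1b was at 25.5% and Ogt at 25.7% of the median, just above that limit. At 50% or less there were 15 tumours for Ogt, 7 for Kdm1b, 4 for Foxk2, 3 for Asxl2, 2 each for Hcfc1 and Foxk1, 1 for Bap1 and 0 for Asxl1. At least 1 tumour at that level was found for 88.1% of genes and exactly 1 for 8.72%, so 7 of 8 members is near the background. The single Bap1 tumour came from mouse CC058-H4, which is above median survival. It had 21.5 CPM from 448 counts, 35.9% of the median. The next lowest, LAX-C2, had 32.03 CPM, at -0.91 on the log2 scale relative to the median, which is short of the 50% limit. The other tumours of strain CC058 had 44.3 CPM in mouse B2, and 59.6 and 65.8 CPM in mouse I4.

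**Figure D4:**
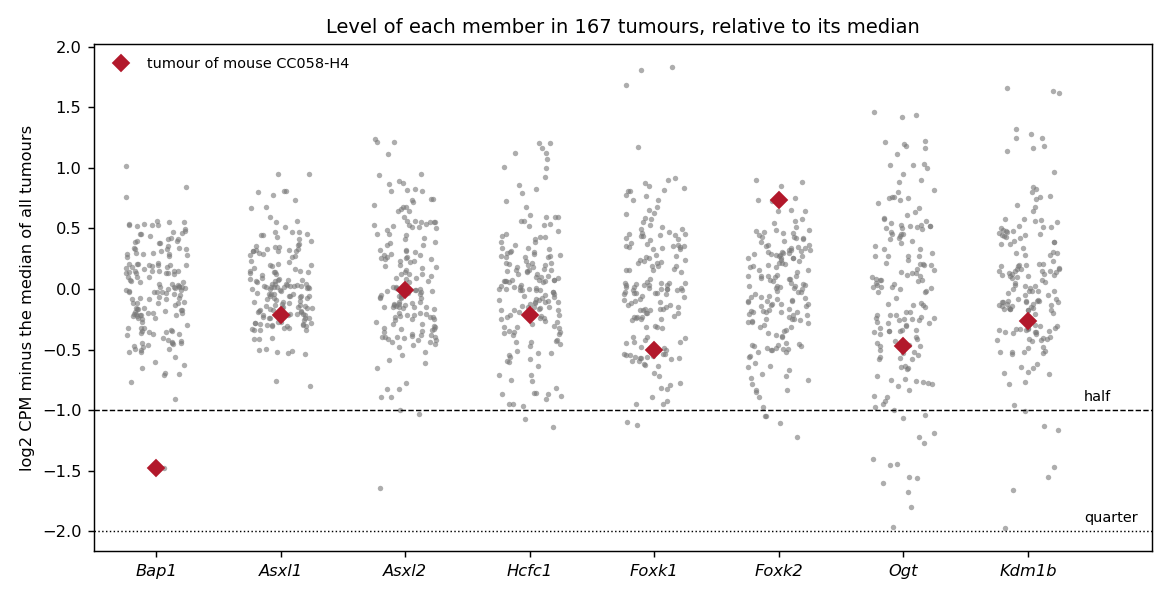
Log2 CPM of each member in 167 tumours minus the member's median (vertical axis), 1 grey point per tumour, with the tumour of mouse CC058-H4 as a red diamond and lines at 50% (dashed) and 25% (dotted) of the median. The CC058-H4 tumour is at -1.48 for Bap1, apart from the next lowest at -0.91, and lies among the other tumours for the other 7 members.

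The CC058-H4 tumour was low in Bap1 and in the genes beside it. Its other 7 members averaged -0.13 on the log2 scale relative to their medians, with Foxk2 at 0.74, Asxl2 at -0.01 and Foxk1 at -0.50. All 10 genes of the neighbour list on chromosome 14 were below their medians, and 7 of them at 50% or less. Among them Nisch, which encodes the imidazoline receptor nischarin, was at -1.38, the scavenger receptor gene Stab1 at -1.26, Glt8d1 at -1.83 and Nt5dc2 at -1.87. Pbrm1, a SWI/SNF subunit gene close to Bap1 and itself a tumour suppressor gene in human cancers, was at -0.85. Over the 43 expressed genes within 2.5 Mb of Bap1, the median was -0.89, with 39 below their medians and 21 at 50% or less. That was the lowest of the 167 tumours, and the next lowest, LAX-C2, had -0.38.

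The median was 0.64 in the 5 Mb window before that of Bap1, and climbed in steps after it, with -0.60 (14 genes), -0.25 (5 genes) and, 15 Mb beyond Bap1, 0.50. Of these windows only that of Bap1 lay below all other tumours; at 5 Mb beyond it the lowest other tumour had -1.02. Farther along, the window medians were -1.03, -0.79 and -0.97 at 40, 45 and 50 Mb, -0.33, -0.82 and -0.86 at 55, 60 and 70 Mb, and -0.97, 1.79, -0.87 and -1.01 at 75, 80, 85 and 90 Mb. Those at 40, 50 and 90 Mb lay below all other tumours and the rest within their range, and the windows at 55, 60, 75, 80 and 85 Mb hold 1 to 5 genes each. The whole chromosome had a median of -0.30 over 443 genes, the 7th lowest of the 167 tumours. It was not the lowest chromosome of that tumour: chromosome 4 had -0.37, and chromosomes 2 and 7 had -0.22 each. The other CC058 tumours had 0.01, 0.19 and 0.03 in the window around Bap1. In that tumour the macrophage list took 0.0446% of counts against a median of 0.130% in the other tumours, the mesothelial list 0.0940% against 0.0428% and the hepatocyte list 0.0320% against 0.0228%. No DNA was measured, so whether gene copies are missing was not tested.

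**Figure D5:**
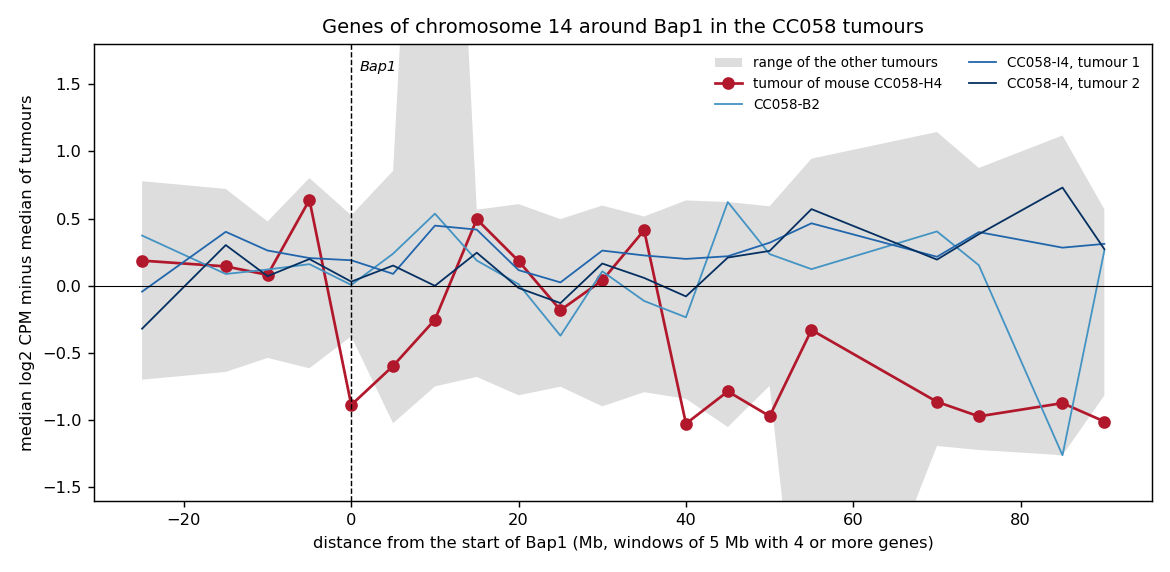
Median log2 CPM relative to the median of the tumours (vertical axis) for genes in 5 Mb windows, by distance from the start of Bap1 (horizontal axis), in the tumour of mouse CC058-H4 (red), 3 other CC058 tumours (blue lines) and the range of all other tumours (grey, which leaves the axis in 2 places). At Bap1 the red line is at -0.89, below the lowest of the others at -0.38.

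In the lowest tumour of each other member, the genes within 2.5 Mb had a median between -0.54 (Asxl2) and 0.13 (Ogt), and in none of them was that median the lowest of the 167 tumours. Ogt was lowest in a tumour of ROGAN-C3 with 58.4 CPM, at -1.96 relative to the median, while the 25 genes within 2.5 Mb of it had a median of 0.13. This library was among those nearer to another strain, with r = 0.87 for CC046 and -0.02 for its own strain. CC046 had the lowest mean Ogt and Kdm1b of the strains with at least 3 mice. Whether the library comes from ROGAN-C3 was not tested. Kdm1b was lowest in the tumour of CC046-H2 with 6.22 CPM (-1.97), with the 27 genes around it at -0.07. That tumour was also lowest in Asxl2 (19.8 CPM, -1.65), where the 16 genes around it had a median of -0.54, the 4th lowest of the 167 tumours, and second lowest in Ogt (65.3 CPM, -1.80), with Bap1 at 0.46. Foxk2 was lowest in both tumours of CC001-H2, at 38.3 and 41.6 CPM, the same mouse that had the highest Ogt levels, 625.8 and 610.2 CPM. Hcfc1 was lowest in TAS-I1 with 87.9 CPM (-1.14), a library in which hepatocyte genes took 16.02% of counts.

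In 86 genes of 8 lists, 0 passed between the survival classes, beside 1.56% of all 17091 genes tested. The median log2 difference of a list lay between -0.06 and 0.19, against -0.02 over all genes. Across strains 8 of 12 further partners passed, led by the ubiquitin ligase Ube2o (adjusted p = 1.4e-05), the Asxl1 relative Asxl3 (0.00039), whose median level was 0.18 CPM, and the Bap1 relative Uchl5 (0.00114). Of the 19 genes of Polycomb repressive complex 1, 12 passed, among them Phc2 (2.4e-05), Rybp (6.6e-05) and Bmi1 (0.00042). Of the 10 genes of Polycomb repressive complex 2, 7 passed, among them Mtf2 (1.2e-08), Suz12 (0.00012), Ezh2 (0.000121) and Eed (0.000934), all by edgeR.

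Of 14 genes of the methyltransferase complexes that share Hcfc1, 10 passed, led by Cxxc1 (2.0e-07) and Setd1a (3.8e-06), and of 5 other H2A deubiquitinases 1 did, Mysm1 (1.2e-08). Of 6 genes that BAP1 is known to act on in human cells, 4 passed, among them Mcrs1 (1.5e-05) and the calcium channel Itpr3 (0.00662), and of 10 other tumour suppressors of mesothelioma 5 did, among them Cdkn2a (0.00143) and Setd2 (0.00272). Of the 10 neighbours of Bap1 on chromosome 14, 6 passed, led by the troponin gene Tnnc1 (4.4e-11) and Glt8d1 (1.4e-07). All p-values are adjusted over 20687 genes (edgeR), and 69% of all genes passed. Within the run the counts were 0 of 12 partners, 3 of 19 and 0 of 10 Polycomb genes, 1 of 5 deubiquitinases, 0 of 14 methyltransferase genes, 0 of 6 targets, 1 of 10 suppressors and 1 of 10 neighbours, beside 17.8% of all genes. Outside it they were 3, 2, 6, 1, 4, 2, 1 and 2 in the same order, beside 34.5%. The median r of a list with Bap1 over mice lay between 0.01 and 0.18, against -0.02 over all tested genes.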

How the data were processed

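Tumour RNA was measured by strand-specific mRNA sequencing. The submitters' processing notes name kallisto 0.46.1, DESeq2, DESeq and the build GRCm38; the sources used here give no annotation release. The authors deposited a table with an estimated count per gene and tumour as whole numbers, with no normalization, for 36118 Ensembl identifiers, of which 35877 were given a symbol and position from the GENCODE M21 annotation. A second deposited table repeats 22049 of these genes with equal values and was not used. Columns were joined to samples by title; for mouse GIT-K1, titles gave only class, strain and mouse for its 2 columns.

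The members, the gene lists and the tests were chosen with earlier results of these data known. The mouse was the replicate for survival, and counts were summed over its tumours, scaled by TMM, filtered with filterByExpr and entered into the quasi-likelihood F-test of edgeR 4.0.16 under R 4.3.3, two-sided, with Benjamini-Hochberg adjustment over all genes tested and a threshold of 0.05. Differences are below minus above median survival. Strains entered the strain test with at least 3 mice, and tumours of 1 mouse were the replicates for differences between mice of a strain. Correlations used log2 CPM per mouse (prior count 2) and 100000 permutations, within strain after centring. The permutations kept mice inside their strain only in the within-strain setting. Losses were set against the median tumour, and member pairs against all pairs of genes with a mean of 5 CPM or more, a background added after seeing the data. Genes named are the members, the 5 most like Bap1 over mice and the 5 after centring by strain, and at most 4 of lowest p per list and test; 1 gene that this rule names is not reported here. The code was tested on simulated data.

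Alternatives were DESeq2 1.42.0, limma-voom (limma 3.58.1), other scalings and filters, and leaving out libraries with over 1% of another tissue, nearer to another strain by over 0.1 in r, or among the 17 of highest number. The analyses by number run, those without mouse CC058-H4, and the windows on chromosome 14 were chosen after seeing the data. Precision is limited by depth, 11138491 to 35399287 counts per library, and by the number of mice.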

Additional observations from a re-analysis of the deposited data

Results flagged for a closer look

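In the 14 strains with 4 to 10 mice, taken for each of the 8 members, 9 groups of values held a mouse far from the others of its strain; chance alone flags about 1 in 20 groups, here 5.6. In the LAX strain, mouse LAX-C2 had 31.4 CPM of Bap1, below the other 5 mice at 40.97 to 43.7 CPM. Ogt was far below the other mice of the strain in LAT-A2 with 71.3 CPM (others 173.0 to 244.6), in BOON-I2 with 93.4 CPM (others 164.4 to 182.0) and in CC040-E4 with 109.4 CPM (others 147.7 to 153.7). LAT-A2 and BOON-I2 are the only mice of their strains among the 16 mice of the highest library numbers, where the mean log2 CPM of Ogt was 7.06, against 7.57 in the other 60 mice outside the number run. Skeletal muscle genes took 1.39% of counts in BOON-I2.

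Hcfc1 was low in GIT-K1 with 116.1 CPM, against 176.8 to 181.9 in the other GIT mice; skeletal muscle genes took 4.005% of counts in 1 of its 2 tumours, and Hcfc1 correlated with the muscle list at r = -0.28 (rho = -0.26, adjusted permutation p = 0.00799) over all mice. The part of library number and muscle in these values was not tested. The other flags were high values. Foxk2 had 172.0 CPM in CC059-A2, against 84.6 to 98.03 in the other CC059 mice. Asxl1 had 113.5 CPM in CC040-H1 (others 91.3 to 93.1). That mouse is among the 16 of the highest library numbers, but so is CC040-D3, the lowest of the strain in Asxl1 with 91.3 CPM. Asxl2 had 110.4 CPM in VUX-D1 (others 56.4 to 62.4), and Kdm1b had 52.2 CPM in TAS-I1 (others 19.5 to 25.6), a library in which hepatocyte genes took 16.02% of counts.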

How the results depend on the processing

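No member passed between the survival classes under any alternative run, while the number of all genes called was 267, and 1108 with no filter, 480 with DESeq2 and 0 with limma-voom or with strain as a covariate; within strain it was 0, and 69 with DESeq2. Small survival differences changed sign. Without libraries with over 1% of another tissue Hcfc1 was 0.045, Foxk1 0.12 and Foxk2 0.00041, and Bap1 within strain -0.0026. Without the 5 libraries nearer to another strain Hcfc1 was 0.0027 and Asxl2 within strain 0.027. With strain as a covariate Hcfc1 was 0.039 and Foxk1 0.23. Without the 17 libraries of highest number Hcfc1 was 0.0026 and Asxl1 -0.012, and with the first listed tumour of each mouse Asxl1 was -0.0064. With the number run as a covariate Bap1 was -0.040, and Asxl2 within strain was 0.00012 with no filter and 0.0080 with limma-voom. The cause was not tested.

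Across strains 6 members passed, 0 in the number run alone and 1 outside it, where fewer mice were tested (all genes 14283, 3412 and 6703 called). The median share of variance between strains over the 8 members was 45.7%, 29.3% in the run, 38.2% outside it and 43.9% to 48.5% leaving out each mouse in turn. With no strain difference at all it would be 23.5% over all mice, 27.8% in the run and 22.7% outside it. Of 28 pairs 18 correlated, 10 after centring by strain, 10 in the run and 0 among the 16 mice of the highest library numbers. Signs changed for Hcfc1 and Ogt (0.12 centred by strain, 0.23 at the highest numbers, 0.13 outside the run, 0.056 centred by run), Foxk1 and Ogt (0.091 centred by strain, 0.16 in the run, 0.039 centred by run), Foxk2 and Ogt (0.094 at the highest numbers, 0.017 outside the run), Bap1 and Asxl2 (0.070 at the highest numbers, 0.12 in the run) and Bap1 and Foxk2 (-0.068 at the highest numbers). No paired analysis was possible because replicate numbers follow only the order of the samples.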
